A study of Mus musculus with 15 samples.

Results

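The 10 genes described here, Bnip3l, Foxo3, Mxi1, Ulk1, Trim58, Trim10, Xpo7, Ube2o, Fbxo7 and Tspo2, act in the last stages of red cell formation, when mitochondria and ribosomes are cleared and the nucleus is condensed and expelled. They were taken by name, with earlier results of these data known. Each matched 1 row of both deposited count tables, so that 10 of 55487 mouse genes listed were members. The libraries hold RNA of fetal liver erythroid progenitors of E12.5 embryos of strain 129S6/SvEvTac, wildtype or mutant for Rpl5. RPL5 is a protein of the large subunit of the ribosome, and the series title places the study in Diamond Blackfan anemia syndrome, in which too few red cells are made. Group 1 of mice had 3 wildtype and 3 mutant libraries made from polyA RNA. Group 2 had 3 wildtype, 3 mutant and 3 low-yield mutant libraries made from total RNA, and the sample sheet of group 2 names the mutant genotype Rpl5plusSkax23Jus. The labels of group 1 give no allele, and they do not say what low-yield means. Nothing in the labels says whether a library came from 1 embryo or from several, so p-values measure the spread between these libraries.

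A maturing erythroblast removes its organelles by autophagy, in which a membrane forms around the cargo and delivers it to lysosomes. Bnip3l (NIX) is the receptor on the outer mitochondrial membrane that marks mitochondria for this route, and Ulk1 is the kinase that starts it. Foxo3 is a forkhead transcription factor needed for erythroid maturation, and Mxi1 is a partner of MAX that opposes MYC. Ube2o and the F-box protein Fbxo7 belong to the ubiquitin system: Ube2o marks ribosomal and other proteins for removal, and Fbxo7 is the substrate receptor of an SCF ubiquitin ligase. Trim58 is an erythroid ubiquitin ligase that acts on dynein before enucleation, and Trim10 is a related RING finger protein of erythroid cells. Xpo7 is a nuclear export receptor. Tspo2 is the erythroid relative of the mitochondrial translocator protein Tspo and is linked to the handling of cholesterol.

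The windows before the starts of 3 members with lower RNA in the mutant are shown here, since Trim10 and Tspo2 carried the largest differences and Trim58 is of the same protein family as Trim10. The sequences are those of RefSeq for GRCm38.p6, each 250 bases that end at the base before the transcript start, 5′ to 3′ on the gene's strand. The window of Trim10 is chr17:36869324-36869573 (forward strand), that of Trim58 is chr11:58640215-58640464 (forward) and that of Tspo2 is chr17:48451502-48451751 (reverse). Capitals mark a GATA motif, searched as TGATAA or AGATAA or, with G in the last place, TGATAG or AGATAG on both strands, or a CACCC motif, searched as CCACACCC or CCCCACCC on both strands.
Trim10: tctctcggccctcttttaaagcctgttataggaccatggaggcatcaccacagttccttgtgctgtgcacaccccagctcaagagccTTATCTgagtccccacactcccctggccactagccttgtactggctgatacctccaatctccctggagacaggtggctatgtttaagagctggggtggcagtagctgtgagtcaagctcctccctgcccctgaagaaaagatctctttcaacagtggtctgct
Trim58: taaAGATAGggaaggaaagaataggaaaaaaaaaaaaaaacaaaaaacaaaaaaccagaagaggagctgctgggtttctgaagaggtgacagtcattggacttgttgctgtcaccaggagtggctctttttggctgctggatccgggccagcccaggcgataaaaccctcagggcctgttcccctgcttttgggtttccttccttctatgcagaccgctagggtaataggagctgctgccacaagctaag
Tspo2: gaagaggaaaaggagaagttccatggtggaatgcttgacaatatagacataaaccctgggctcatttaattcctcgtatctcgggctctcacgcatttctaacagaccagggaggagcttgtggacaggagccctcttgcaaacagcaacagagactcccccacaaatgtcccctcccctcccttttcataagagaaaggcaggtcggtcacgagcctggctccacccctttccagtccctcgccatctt
Trim10 held 1 GATA match on the reverse strand, from base -163 to -158 before the start, and Trim58 held 1 on the forward strand, from -247 to -242. The window of Tspo2 held none of these letters. The table of windows matched 7 of the 10 members with 10 windows (Mxi1 had 3 and Fbxo7 had 2). Bnip3l, Xpo7 and Ube2o were without a window. A GATA motif stood in 2 of these 10 windows against 26.5% of 32851 windows of all genes. A CACCC motif stood in 1 (Mxi1) against 11.8%. The E-box CACGTG, which MYC and MAX partners bind, stood in 0 against 6.02%, and the forkhead letters GTAAACA in 1 (Mxi1) against 3.17%. No match of one of these motifs overlapped a match of another in the windows. A match is a description of letters and not a binding site.

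Total counts ranged from 48510828 to 58513669 per library in group 1 and from 24954324 to 44827821 in group 2, and the lowest count of any member in any library was 458 (Tspo2). Levels are given as CPM, counts relative to a library size scaled by the trimmed mean of M values (TMM), and all 10 members passed the filter on low counts in each comparison. Rpl5 itself was at 656, 668 and 744 CPM in the wildtype libraries of group 1 and at 520, 561 and 570 in the mutant ones. For Rpl5 group 2 gave 324, 303 and 374 in the wildtype libraries, 232, 248 and 248 in the mutant ones and 243, 219 and 278 in the low-yield ones. Each mutant library thus lay below each wildtype library of its group. Defining erythroid markers (Gata1, Klf1, Epor, Tfrc, Tal1, Nfe2, Zfpm1) summed to 2923 to 3063 CPM in wildtype and 2381 to 2566 in mutant libraries of group 1. The 10 macrophage markers summed to at most 11.4, and Timd4 was at 0 in all 5 groups. The 9 granulocyte markers summed to 101 to 758 in wildtype and 256 to 1436 in mutant libraries of group 1. The erythroid sum was 4214 to 4461 in the wildtype, 3590 to 3791 in the mutant and 3343 to 3686 in the low-yield libraries of group 2. It was thus lower in mutants without overlap, and 6 of the 7 genes were called lower over both groups of mice, where 9.80% of all genes were. The part of this shift in the members' differences was not tested.

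The position of each gene on GRCm38 follows GENCODE release M21. Trim10 (chr17:36869574-36877833, forward) and Tspo2 (chr17:48447907-48451522, reverse) lie on the same chromosome, as do Bnip3l (chr14:66985239-67008877) and Xpo7 (chr14:70654246-70766628), Foxo3 (chr10:42181841-42276755) and Fbxo7 (chr10:86021972-86051873), and Trim58 (chr11:58640465-58652404) and Ube2o (chr11:116537740-116581447). Mxi1 is at chr19:53310518-53375810 and Ulk1 at chr5:110784488-110810097. Exons of 3 members overlap those of another gene, and the use of strand in counting is not given in the sources used here. A230060F14Rik, antisense to Fbxo7, was at 0.873 to 4.56 CPM, Npm2, on the strand of Xpo7, at 0 to 0.192, and Gm10197, opposite Mxi1, at 0 in every library, so these neighbours were far below the members. Bnip3l also has a pseudogene, Bnip3l-ps, which was at 1.08 CPM or less in every library.

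Levels of different genes were set side by side only per length, as CPM per kilobase of annotated exon. This length joins the exons of all annotated transcripts of a gene. It is 19005 bases for Xpo7 and 7571 for Foxo3, the next longest, so the order depends on it. In wildtype libraries of group 1 Bnip3l (42.7 ± 1.80, SD, n = 3) and Trim10 (38.3 ± 5.01) stood highest and their ranges overlapped. Foxo3 followed at 17.7 ± 2.16, above the range of Ube2o (10.4 ± 1.00). Ube2o, Fbxo7 (9.83 ± 0.628), Tspo2 (9.33 ± 1.06) and Trim58 (9.06 ± 0.590) each overlapped the next in order. Ulk1 (7.85 ± 0.379) and Mxi1 (7.85 ± 0.438) overlapped each other, and Xpo7 was lowest at 4.0 ± 0.51. In the mutant libraries of group 1 Trim10 (18.6 ± 2.07) no longer reached the range of Bnip3l (41.7 ± 3.31) and overlapped that of Foxo3 (17.1 ± 0.940), and Tspo2 moved from the sixth to the ninth place (4.84 ± 0.151). In total RNA Foxo3 stood first in all 3 groups of group 2, at 46.0 ± 1.73 CPM per kilobase in wildtype. Trim10 came next there (34.7 ± 9.53), with a range that overlapped those of Foxo3 and Bnip3l, and had 3 members above it in the mutant (16.6 ± 1.58) and low-yield mutant libraries (14.0 ± 3.95). Levels were not compared between the groups of mice, since the kind of RNA differs.

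**Figure D1:**
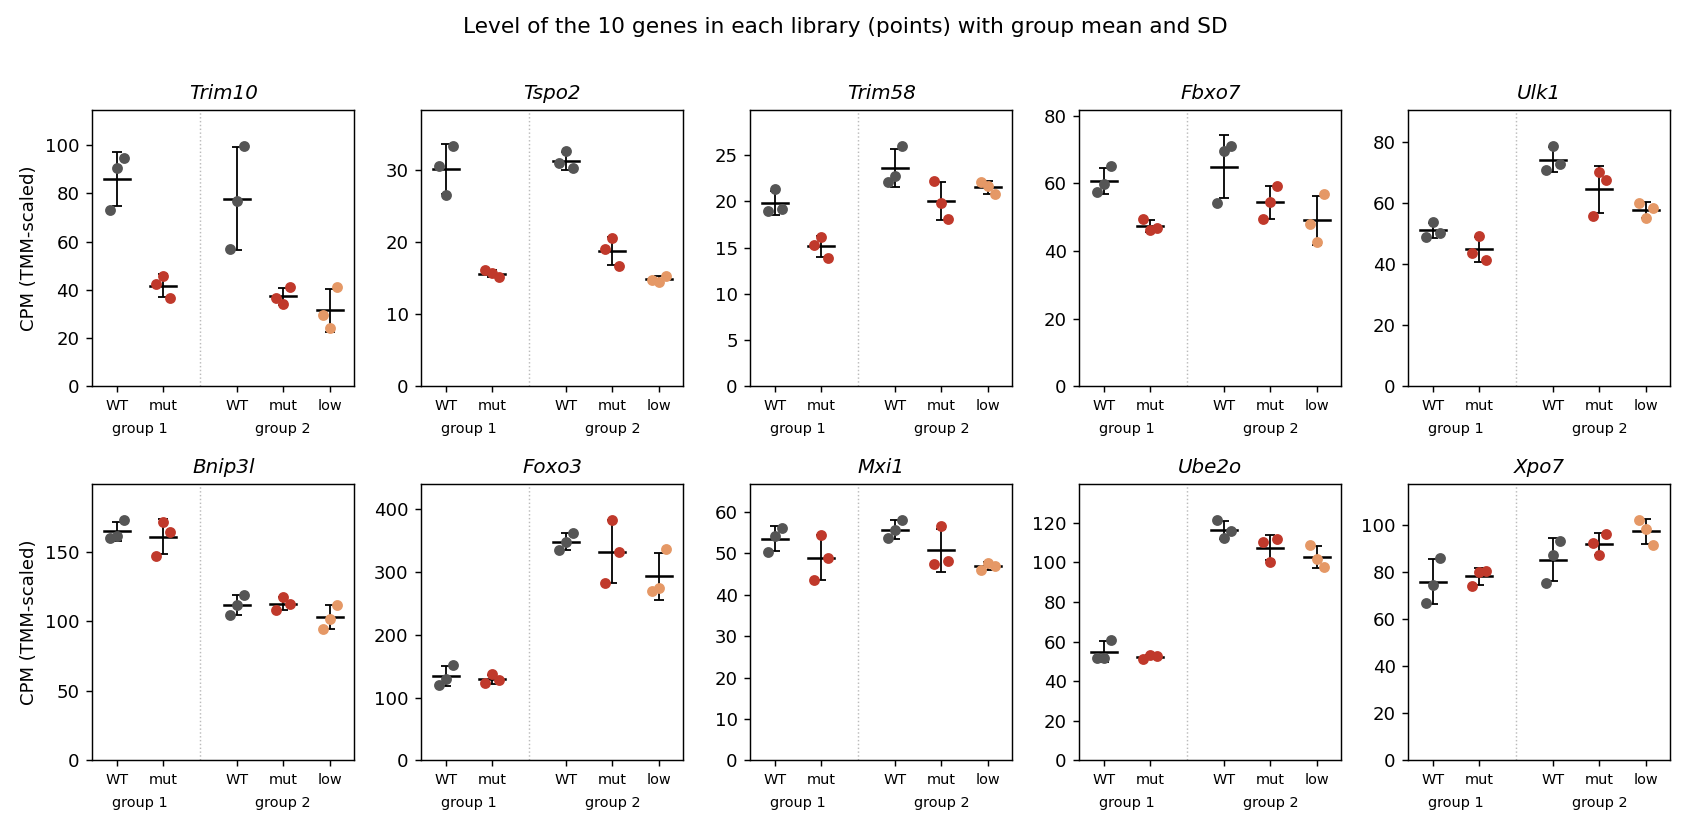
Level of each gene in CPM (vertical axis, from 0) in the 15 libraries. Points are libraries, horizontal bars group means and error bars SD over 3 libraries. WT is wildtype, mut mutant and low low-yield mutant, and the dotted line parts group 1 from group 2. Trim10 and Tspo2 lay lower in every mutant library than in every wildtype library of their group.

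Trim10 and Tspo2 were at about 40.5% to 60.0% of wildtype in every mutant group. Trim10 was at 73.3, 90.4 and 94.5 CPM in wildtype libraries of group 1 (86.0 ± 11.2, SD, n = 3) and at 42.6, 45.8 and 36.7 in mutant ones (41.7 ± 4.64). The highest mutant library was thus well under the lowest wildtype one. Its levels in group 2 were 56.9, 76.9 and 99.7 CPM in the wildtype libraries (77.8 ± 21.4), 36.6, 34.1 and 41.1 in the mutant ones (37.3 ± 3.55) and 29.4, 24.0 and 41.3 in the low-yield ones (31.5 ± 8.87). The wildtype libraries were widely spread there and still did not overlap either mutant group. By edgeR's quasi-likelihood test with Benjamini-Hochberg adjustment over all genes tested, the log2 fold change of Trim10 was -1.05 in group 1 (SE 0.11, adjusted p 0.000437), -1.06 in the group 2 mutant (SE 0.23, adjusted p 0.0309) and -1.30 between low-yield mutant and wildtype (SE 0.23, adjusted p 0.00769). The call in the group 2 mutant was lost without wildtype replicate 2 or 3, mutant replicate 1, 2 or 3 or low-yield replicate 1 (adjusted p from 0.0559 to 0.145, log2 fold change from -1.14 to -0.84), and without the filter on low counts (adjusted p 0.0876).

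Tspo2 had the smallest adjusted p of the 10 members in each comparison with wildtype. It was at 30.5, 26.5 and 33.3 CPM in wildtype and at 16.0, 15.7 and 15.1 in mutant libraries of group 1. In total RNA the values were 30.9, 32.6 and 30.2 CPM in the wildtype libraries, 19.0, 20.6 and 16.6 in the mutant ones and 14.6, 14.5 and 15.3 in the low-yield ones. No library of a mutant group overlapped wildtype, and the 3 low-yield libraries lay below the 3 other mutant libraries as well, which held for 4.15% of all genes. The log2 fold change of Tspo2 was -0.95 in group 1 (SE 0.11, adjusted p 0.000315), -0.74 in the group 2 mutant (SE 0.11, adjusted p 0.0016) and -1.08 between low-yield mutant and wildtype (SE 0.11, adjusted p 5.55e-05) by the same edgeR test. These calls held in every alternative run and without any single library. Between the low-yield and the other mutant the difference of -0.33 (SE 0.12) had an adjusted p of 1.00 and was not called.

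Trim58, the ligase that acts on dynein, was called lower in group 1 and not in group 2. It was at 19.0, 21.3 and 19.2 CPM in wildtype and 15.3, 16.2 and 13.9 in mutant libraries of group 1, which did not overlap (log2 fold change -0.39, SE 0.11, adjusted p 0.0358 by edgeR). That call was lost without wildtype replicate 1, 2 or 3 or mutant replicate 1 or 3 (adjusted p from 0.0640 to 0.156). Group 2 gave 22.1, 22.7 and 26.0 CPM in the wildtype libraries, 22.2, 19.8 and 18.0 in the mutant ones and 22.1, 21.7 and 20.8 in the low-yield ones, with overlap in both cases. The log2 fold change there was -0.24 (SE 0.12, adjusted p 0.261) and -0.14 (SE 0.12, adjusted p 0.496).

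Fbxo7, the SCF substrate receptor, passed the test with a lower level in group 1 and for the low-yield mutant. In group 1 it was at 57.5, 59.7 and 65.0 CPM in wildtype and 49.5, 46.2 and 46.8 in mutant libraries, without overlap (log2 fold change -0.36, SE 0.07, adjusted p 0.0098 by edgeR). Without mutant replicate 3 the adjusted p was 0.0566. In group 2 wildtype libraries were at 54.3, 69.5 and 71.1 CPM, mutant ones at 49.4, 54.6 and 59.3 and low-yield ones at 47.8, 42.5 and 56.7, so that wildtype replicate 1 lay within both mutant ranges. The log2 fold change was -0.26 in the mutant (SE 0.12, adjusted p 0.264) and -0.41 between low-yield mutant and wildtype (SE 0.12, adjusted p 0.0445). The low-yield call held when wildtype replicate 1 or low-yield replicate 3 was left out. Without any other of the 9 libraries (wildtype 2 and 3, mutant 1 to 3, low-yield 1 and 2) the adjusted p ran from 0.0532 to 0.210. It was also lost with a filter at a mean of 5 CPM (adjusted p 0.0586) and in a fit of the 6 compared libraries alone (0.0655).

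Ulk1, the kinase at the start of autophagy, was at 48.9, 53.7 and 50.2 CPM in wildtype and 43.7, 49.2 and 41.3 in mutant libraries of group 1, which overlapped. The group 2 levels were 70.9, 78.6 and 72.8 CPM in the wildtype libraries, 55.5, 70.2 and 67.4 in the mutant ones and 60.0, 54.9 and 58.3 in the low-yield ones. Both mutant groups of group 2 lay below wildtype without overlap. The difference passed the edgeR test for the low-yield mutant (log2 fold change -0.36, SE 0.10, adjusted p 0.0238) and not for the mutant (-0.20, SE 0.10, adjusted p 0.254) or in group 1 (-0.19, SE 0.08, adjusted p 0.171). The low-yield call was lost without wildtype replicate 2 or 3 or low-yield replicate 1 or 2 (adjusted p from 0.0524 to 0.117).

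The mitophagy receptor Bnip3l did not pass the test in any comparison. It was at 160, 161 and 173 CPM in wildtype and 147, 172 and 164 in mutant libraries of group 1, and at 105, 112 and 119 in the wildtype, 108, 118 and 113 in the mutant and 94.8, 102 and 112 in the low-yield libraries of group 2. The ranges overlapped throughout, with log2 fold changes of -0.03 (SE 0.07), 0.01 (SE 0.09) and -0.12 (SE 0.09).

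The 2 transcription factors among the members gave small differences. Foxo3 was at 121, 129 and 152 CPM in wildtype and 123, 137 and 128 in mutant libraries of group 1. Foxo3 in group 2 was at 335, 348 and 361 in the wildtype libraries, 283, 383 and 331 in the mutant ones and 270, 274 and 337 in the low-yield ones, where low-yield replicate 3 reached the wildtype range. Its log2 fold changes were -0.05 (SE 0.09), -0.07 (SE 0.11) and -0.25 (SE 0.11, adjusted p 0.159 by edgeR), and without low-yield replicate 3 the last was called (-0.36, adjusted p 0.0437). Mxi1 was at 50.3, 54.2 and 56.1 CPM in wildtype and 43.6, 54.4 and 48.8 in mutant libraries of group 1, and at 53.5, 55.6 and 58.0 in the wildtype, 47.3, 56.6 and 48.1 in the mutant and 45.9, 47.7 and 46.9 in the low-yield libraries of group 2. Leaving the low-yield libraries aside, mutant replicate 2 was the highest mutant library for both genes in each group of mice. The log2 fold change of Mxi1 was -0.13 (SE 0.09), -0.14 (SE 0.09) and -0.25 (SE 0.09, adjusted p 0.0903), the last without overlap between the groups. With voom in place of edgeR, Mxi1 and Foxo3 passed the test in the low-yield mutant (log2 fold change -0.26, adjusted p 0.0242, and -0.31, adjusted p 0.0208).

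Ube2o and Xpo7 were likewise not called. Ube2o was at 51.8, 51.5 and 60.8 CPM in wildtype and 51.3, 53.2 and 52.7 in mutant libraries of group 1, and at 121, 112 and 116 in the wildtype, 110, 100 and 112 in the mutant and 109, 102 and 97.8 in the low-yield libraries of group 2. Both mutant groups of group 2 lay just under wildtype (log2 fold change -0.12, SE 0.08, and -0.18, SE 0.08, adjusted p 0.465 and 0.156 by edgeR). Xpo7 was the only member with a positive estimate against wildtype in each comparison: 0.04 (SE 0.09) in group 1, 0.11 (SE 0.09) in the group 2 mutant and 0.19 (SE 0.09, adjusted p 0.202) in the low-yield mutant. Its CPM was 66.9, 74.7 and 86.2 in wildtype and 74.1, 80.1 and 80.5 in mutant libraries of group 1, and 75.5, 87.5 and 93.1, 92.4, 87.3 and 96.2, and 102, 98.2 and 91.7 in wildtype, mutant and low-yield mutant libraries of group 2. All of these ranges overlapped.

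**Figure D2:**
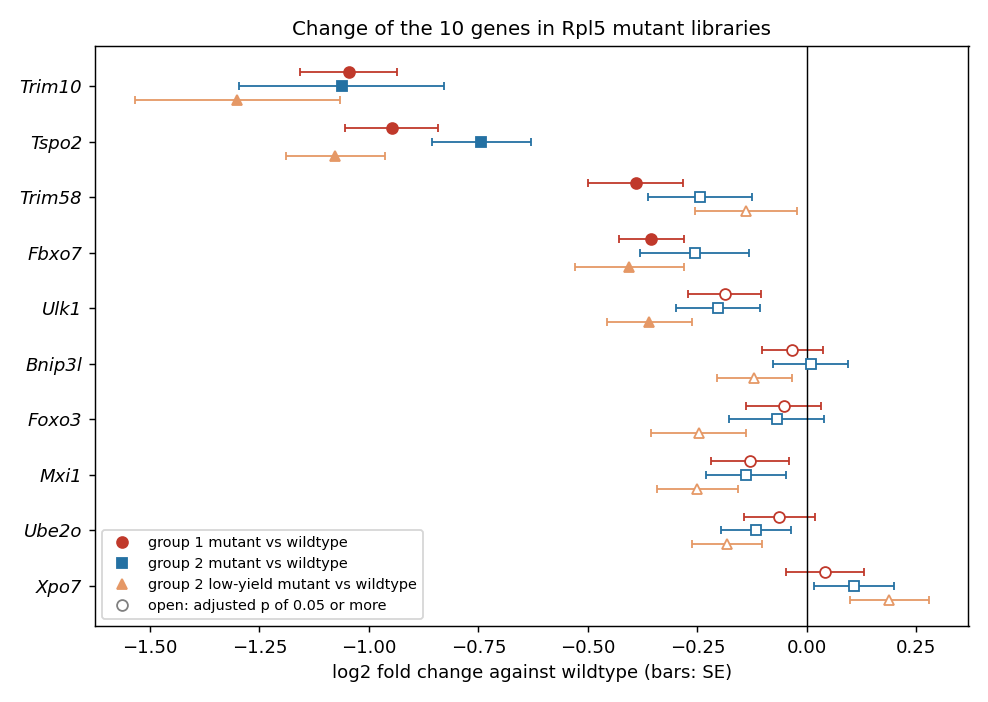
Log2 fold change against wildtype (horizontal axis) with its SE for the 10 genes in the 3 comparisons with wildtype. Filled symbols passed an adjusted p of 0.05 and open ones did not. Trim10 and Tspo2 lie between -1.30 and -0.74, and the other members between -0.41 and 0.19.

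Counted over the members, 4 of 10 were called lower in group 1, 2 of 10 in the group 2 mutant and 4 of 10 in the low-yield mutant. Over all genes tested, 6.78%, 2.95% and 5.86% were called lower in these comparisons. The members were chosen with earlier results of these data known, so the shares describe them and are not a test of the set. No member was called higher by edgeR, DESeq2 or voom, and 0 had a higher level at an unadjusted p under 0.05, while 5.79%, 3.32% and 6.68% of all genes were called higher. Groups did not overlap, with the mutant lower, for 4, 4 and 5 members against 16.6%, 11.8% and 14.6% of genes. The median log2 fold change of the 10 was -0.16, -0.17 and -0.25 beside 0.01, -0.01 and 0.00 over all genes. The group 2 comparisons share their wildtype libraries. Without group 1 mutant replicate 3 the count in group 1 was 2. In the group 2 mutant it was 1 without wildtype replicate 2 or 3, mutant replicate 1, 2 or 3 or low-yield replicate 1, and in the low-yield mutant it was 2 without wildtype replicate 2 or 3 or low-yield replicate 1 or 2. With the replicate number as a block, the genes called in group 1 numbered 2863 in place of 1766 of 14048, and 4 members were again called lower.

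Taking both groups of mice together, with the group as a term, 5 members were called lower by edgeR, where 9.80% of 15954 genes were. They were Trim10 (log2 fold change -1.05, SE 0.12, adjusted p 2.31e-05), Tspo2 (-0.85, SE 0.08, adjusted p 5.56e-07), Trim58 (-0.32, SE 0.08, adjusted p 0.00906), Fbxo7 (-0.31, SE 0.07, adjusted p 0.00487) and Ulk1 (-0.19, SE 0.07, adjusted p 0.0427). The first 4 stayed called without any one of the 12 libraries. The call of Ulk1 was lost without wildtype replicate 2 or 3 or mutant replicate 1 or 3 of group 1, or without wildtype replicate 2 or 3 or mutant replicate 1 of group 2 (adjusted p from 0.0533 to 0.101), and with a filter at a mean of 5 CPM (adjusted p 0.0549). The estimates of Mxi1 (-0.13, SE 0.06), Ube2o (-0.09, SE 0.06), Foxo3 (-0.06, SE 0.07), Bnip3l (-0.01, SE 0.05) and Xpo7 (0.07, SE 0.06) were not called by edgeR, while voom called Mxi1 lower (-0.16, adjusted p 0.0366). An interaction between genotype and the group of mice was called by edgeR for 0 of 10 members, of which 0 had an unadjusted p under 0.05 and 0 were called by DESeq2 or voom, and for 0.0188% of all genes. Between low-yield and other mutants edgeR, DESeq2 and voom called 0 of 10 members, with 1 (Tspo2) at an unadjusted p under 0.05, and edgeR called 0 of 15024 genes.

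Because the members differed so much in size of change, the ratio of each pair was compared within libraries, where the scaling between libraries cancels. For each of the 45 pairs, the mean log2 ratio in mutant and in wildtype libraries of the 2 groups was compared by a two-sided exact permutation test of the genotype labels within each group of mice (12 libraries, 400 arrangements, smallest possible p 0.005). This test was chosen after the values of the members had been seen, and p-values were adjusted over the 45 pairs. In total 24 pairs passed, and 20 to 28 did without 1 library. These arrangements ignore that libraries of the same number in group 1 deviated together. With labels of group 1 swapped only within its numbered pairs (160 arrangements, smallest possible p 0.0125), 25 pairs passed, among them all 16 of Trim10 or Tspo2 with one of the 8 other members. In the first test these 16 pairs passed with the smallest p the arrangements can give (exact permutation p = 0.005, adjusted 0.0125), Trim10 or Tspo2 being the one that fell relative to the other. The log2 change of the ratio ran from -1.12 for Trim10 to Xpo7 (SE 0.10) to -0.53 for Tspo2 to Trim58 (SE 0.10). Trim10 to Tspo2 gave -0.19 (SE 0.17, exact permutation p = 0.265, adjusted 0.314), which did not pass. Fbxo7 fell relative to Xpo7 (-0.38, SE 0.06), Bnip3l (-0.29, SE 0.07) and Foxo3 (-0.24, SE 0.08; not with the paired arrangements, exact permutation adjusted p 0.0625), and Trim58 relative to Xpo7 (-0.40, SE 0.09) and Bnip3l (-0.30, SE 0.08). The ratio of the 2 autophagy members, Ulk1 to Bnip3l, fell by 0.19 on the log2 scale (SE 0.07, exact permutation p = 0.02, adjusted 0.0391).

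**Figure D3:**
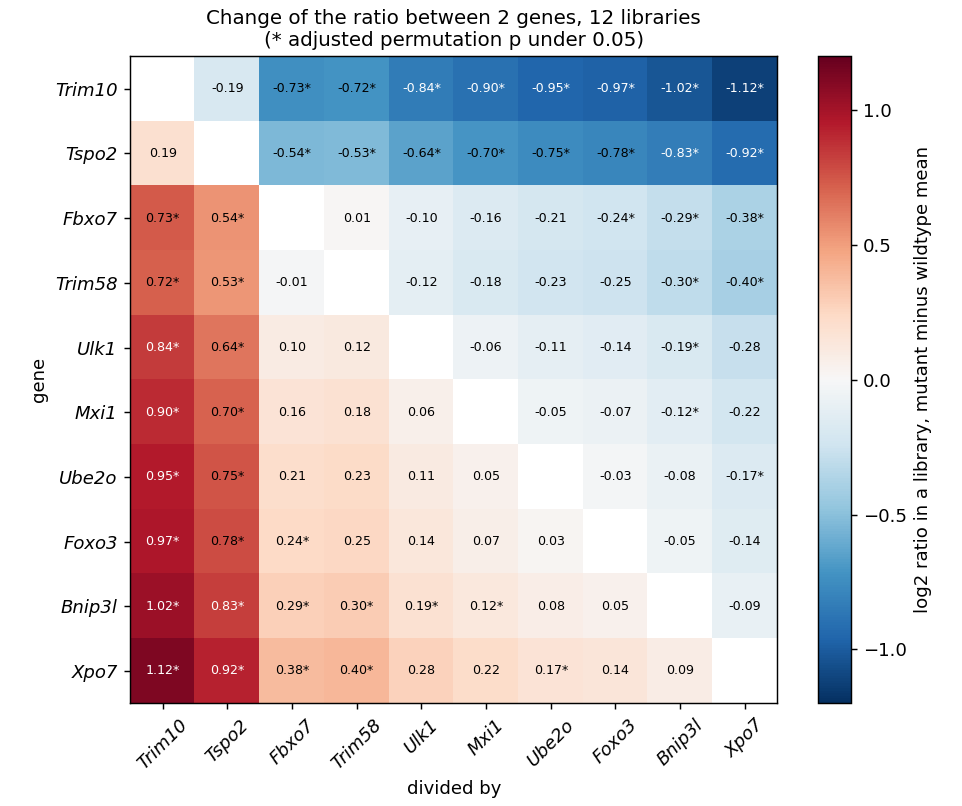
Change of the within-library log2 ratio of the gene in the row to the gene in the column, as the mutant minus the wildtype mean over both groups of mice (12 libraries). An asterisk marks an adjusted exact permutation p under 0.05. The rows of Trim10 and Tspo2 are negative against all 8 other members.

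Markers of late erythroid cells moved with these differences. The summed CPM of 11 such genes (Slc4a1, Epb42, Sptb, Alas2, Fech, Hbb-bt, Hba-a1, Hba-a2, Ermap, Aqp1 and Rhag) was 4855 to 6479 in wildtype and 2610 to 2733 in mutant libraries of group 1. In group 2 it was 5657 to 10571 in wildtype, 3610 to 4265 in mutant and 3070 to 4243 in low-yield mutant libraries, and none of the 11 was at 0 throughout a group. Their median log2 fold change was -1.52, -1.11 and -1.37, with 10, 6 and 9 of 11 called lower against 6.78%, 2.95% and 5.86% of all genes. Over both groups of mice 10 of 11 were called lower, from -2.11 for Hbb-bt to -0.28 for Ermap, against 9.80%. The fold changes of Trim10 and Tspo2 thus lie within the range of these markers, with 6 and 7 of the 11 further down, in each of the 3 comparisons with wildtype. Markers of early progenitors summed to 488 to 629 CPM in wildtype and 548 to 666 in mutant libraries of group 1, and to 433 to 585, 582 to 680 and 598 to 725 in the 3 groups of group 2, where the low-yield libraries lay above wildtype without overlap. All 7 tested early progenitor genes had positive estimates in each comparison with wildtype, with medians of 0.30, 0.54 and 1.14, and 1, 2 and 2 of them were called higher against 5.79%, 3.32% and 6.68% of all genes. Over both groups 3 were called higher, Kit (0.38, SE 0.07), Gata2 (1.48, SE 0.38) and Meis1 (0.58, SE 0.18), against 9.80%. Fewer late cells and less RNA of these genes per cell cannot be told apart in bulk samples, and the part of cell stage in the members' differences was not tested.

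Markers of other cell types were summed in the same way. The 9 granulocyte markers summed to 101 to 758 CPM in wildtype and 256 to 1436 in mutant libraries of group 1, which overlapped, and to 18.0 to 35.7 in wildtype, 137 to 230 in mutant and 176 to 380 in low-yield mutant libraries of group 2, where both mutant groups lay above wildtype without overlap. None of the 9 had a negative log2 fold change in the 3 comparisons with wildtype, with medians of 0.55, 2.65 and 3.47. Of the 9, 0, 6 and 9 were called higher, against 5.79%, 3.32% and 6.68% of all genes. The 9 hepatocyte markers summed to 34.0 to 63.1 and 5.93 to 22.0 CPM in wildtype and mutant libraries of group 1, where the mutant lay below wildtype without overlap and 2 of 9 were called lower against 6.78% of all genes (median log2 fold change -1.49). In group 2 their sums of 10.1 to 77.9 in wildtype, 8.97 to 48.7 in mutant and 42.8 to 48.6 in low-yield libraries overlapped. The 7 megakaryocyte markers summed to 23.6 to 41.0 and 27.0 to 43.9 CPM in group 1, and to 35.2 to 39.6 in wildtype, 33.2 to 39.8 in mutant and 49.5 to 50.8 in low-yield libraries of group 2, the last above the others. The genes went both ways: of 6 tested in the low-yield mutant, edgeR called 3 higher than wildtype and 1 lower. Itga2b was at 1.62 (SE 0.16) and Vwf at -0.63 (SE 0.19), and 6.68% and 5.86% of all genes were called higher and lower. The 5 endothelial markers summed to 1.91 to 4.13 and 3.52 to 9.29 CPM in group 1, which overlapped, and to 0.896 to 1.85, 3.20 to 5.56 and 6.06 to 9.44 in group 2, which did not. Their part in the members' differences was not tested.

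In the wider autophagy machinery more genes were called lower than higher. This list and those that follow were chosen with earlier results of these data known, so their shares are descriptions. Over both groups of mice, edgeR called 10 of 39 tested genes lower and 1 higher, against 9.80% of all genes in each direction, and the median log2 fold change was -0.09 beside 0.00 over all genes. In the separate comparisons 6, 5 and 8 of 39 were called lower in group 1, the group 2 mutant and the low-yield mutant, beside 6.78%, 2.95% and 5.86% of all genes. Atg4b, the protease that trims LC3 proteins, was at -0.46 (SE 0.06), and the phosphoinositide-binding proteins Wipi2 and Wipi1 at -0.40 (SE 0.05) and -0.50 (SE 0.07). All 3 were called lower in each comparison with wildtype. Map1lc3b, the LC3B protein of the forming membrane, was called lower in the group 2 mutant (-0.47, SE 0.09) and the low-yield mutant (-0.52, SE 0.09) and not in group 1 (-0.30, SE 0.14). Of 10 other mitophagy genes 3 were called lower over both groups and 0 higher by edgeR: Nipsnap2 (-0.49, SE 0.07), a mitochondrial protein that recruits autophagy proteins, the kinase Pink1 (-0.39, SE 0.11) and the small GTPase Rheb (-0.22, SE 0.07). Bnip3, the nearest relative of Bnip3l, was not called (0.21, SE 0.31).

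The next genes are linked to Foxo3 and Mxi1. Of 14 tested relatives and known targets of FOXO factors 2 were called lower over both groups, Gabarapl1 (-0.25, SE 0.06) and the insulin receptor gene Insr (-0.29, SE 0.08), where 9.80% of all genes were called in each direction. Txnip was called higher in the group 2 mutant (0.47, SE 0.11), and was at 0.50 (SE 0.32) in group 1, 0.34 (SE 0.11) in the low-yield mutant and 0.49 (SE 0.16) over both groups, where it was not called. The relatives Foxo1 (0.17, SE 0.10) and Foxo4 (-0.15, SE 0.07) were not called. In the network of MYC, MAX and their partners 2 of 10 were called lower and 1 higher, against the same 9.80%. Mxd1, a MAX partner of the same family as Mxi1, was lower in each comparison: -0.73 (SE 0.16) in group 1, -0.78 (SE 0.15) in the group 2 mutant and -1.09 (SE 0.15) in the low-yield mutant. Mxd3 was at -0.90 over both groups (SE 0.19) and Mlx at 0.23 (SE 0.07). Mxd4 was called in the low-yield mutant (-0.54, SE 0.13) and not over both groups (-0.12, SE 0.12).

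Among 17 tested partners of the ubiquitin members 7 were called lower and 1 higher over both groups, against 9.80% of all genes in each direction. Psmf1, the proteasome regulator PI31 that binds Fbxo7, was at -0.47 (SE 0.06, adjusted p 1.2e-05 by edgeR) and was called lower in each comparison with wildtype. Ranbp10, a subunit of the CTLH ubiquitin ligase, was at -0.50 (SE 0.08) and likewise called in each. The conjugating enzyme Ube2l6 was at -0.95 (SE 0.14). Ypel5, which binds the CTLH ligase, was at -0.77 over both groups (SE 0.18), and was called lower in both comparisons of group 2 (-1.31 in each) and not in group 1 (-0.54, SE 0.22). Maea, another CTLH subunit that is also known from erythroblast islands and stands in the enucleation list as well, was called higher over both groups (0.17, SE 0.06); it lies outside the rule for naming genes and was chosen after its values were seen. The TRIM relatives Trim39 (-0.28, SE 0.07) and Trim11 (-0.30, SE 0.07) were called lower over both groups, while Trim27 (-0.05, SE 0.06) and Trim17 (0.24, SE 0.51) were not. Trim39 and Trim11 were called in group 1 (-0.39, SE 0.08, and -0.40, SE 0.10). They were not called in the group 2 mutant (-0.15, SE 0.11, and -0.20, SE 0.10) or the low-yield mutant (-0.11, SE 0.11, and -0.17, SE 0.10). Fbxo9, another F-box gene (-0.06, SE 0.06), and Tspo, the relative of Tspo2 (0.02, SE 0.12), were not called.

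Genes of enucleation and nuclear condensation went both ways, with 5 of 21 called higher and 2 lower over both groups and a median of 0.06. The formin gene Diaph1 (0.42, SE 0.05) and the GTPase gene Rac1 (0.37, SE 0.05) were called higher in each comparison with wildtype. The deacetylase gene Hdac5 was lower (-0.74, SE 0.12). Vim, which encodes the intermediate filament protein vimentin, gave the largest change of the list. It was called higher over both groups (1.96, SE 0.37), in the group 2 mutant (2.46, SE 0.42) and in the low-yield mutant (3.35, SE 0.42), and not in group 1 (1.66, SE 0.65). Of the 9 granulocyte markers, 6 were called higher in the group 2 mutant and 9 in the low-yield mutant, against 3.32% and 6.68% of all genes, and edgeR called 0 in group 1 and 0 over both groups, where 0 and 2 had an unadjusted p under 0.05. Their part in the change of Vim was not tested. Tmod1, a protein that caps actin filaments, was called lower in group 1 (-0.81, SE 0.14) and over both groups (-0.69, SE 0.17). Of 18 nuclear transport receptors 4 were called higher and 1 lower, Tnpo1 being at 0.33 (SE 0.05), Ipo5 at 0.26 (SE 0.06), Ipo4 at 0.20 (SE 0.06) and Tnpo2 at -0.32 (SE 0.06). Ranbp17, the nearest relative of Xpo7, was at -0.30 (SE 0.11) and not called. Ulk2, the relative of Ulk1, was not called either (-0.12, SE 0.13). The counts of enucleation and transport genes over both groups stand beside 9.80% of all genes in each direction.

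**Figure D4:**
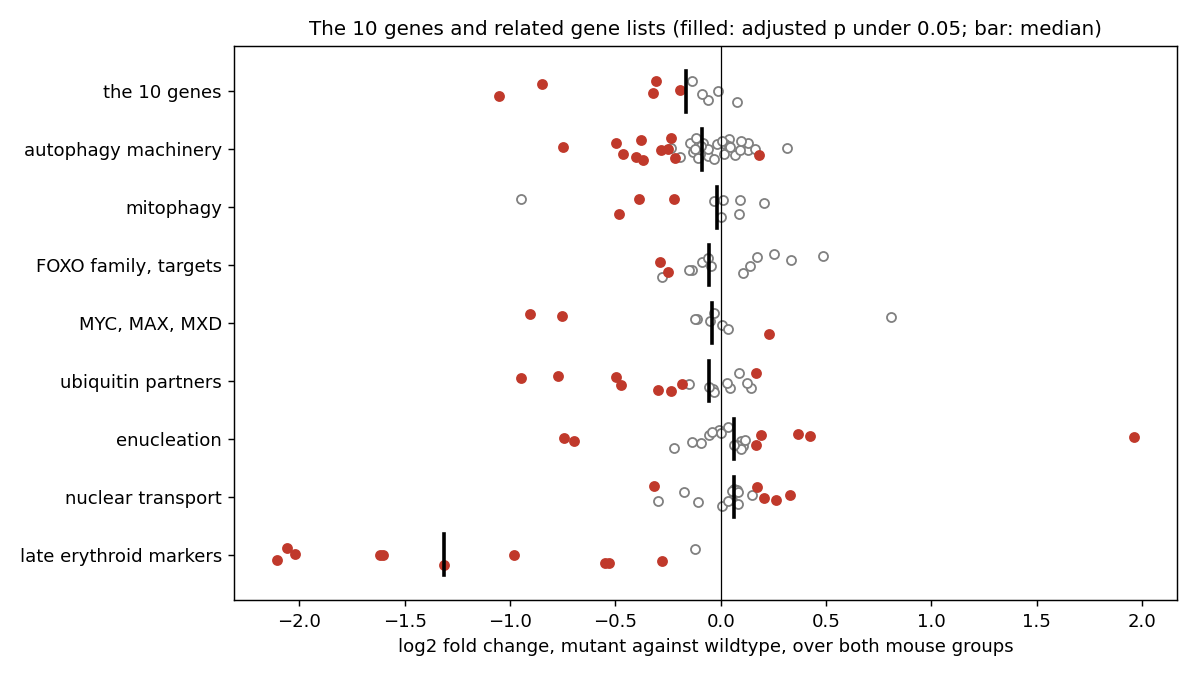
Log2 fold change of mutant against wildtype over both groups of mice (12 libraries, horizontal axis) for each tested gene of the lists named on the vertical axis. Points are genes, filled where the adjusted p was under 0.05, spread vertically at random within a list, and black bars are medians. The median of the 10 genes is -0.16 and that of the late erythroid markers -1.31.

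Across the 15 libraries, with levels centred within each group of mice, the members varied together to different degrees. The closest pair was Trim10 and Fbxo7 (Pearson's r 0.93, n = 15 libraries), followed by Trim10 and Tspo2 (0.90), Bnip3l and Foxo3 (0.83) and Mxi1 and Ulk1 (0.81). Xpo7 had an r of 0.02 with Bnip3l and -0.48 with Tspo2, the extremes of its pairs. These libraries share genotypes, sequencing tables and scaling, so the values describe these samples only. A profile was formed as the mean of the centred and scaled levels of the 10 members, and 13370 genes tested in both tables were compared with it. The most alike non-members were Mtmr3 (0.98), Mxd1 (0.97), Grina (0.97), Fam214b (0.97) and Fam117a (0.96), and the most opposite were Dhx33 (-0.97), Ftsj3 (-0.96), Itfg2 (-0.96), Exosc9 (-0.96) and Gpn1 (-0.95). Each member was left in the profile it was compared with, so its r is not comparable with those of non-members. Among the members themselves Trim10 followed the profile most closely (0.92) and Xpo7 least (-0.11).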

How the data were processed

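RNA of 15 libraries (3 per group) was read as 151 bp paired ends, per the labels. The authors deposited expected counts per gene, already whole numbers and not normalised. The submitters' processing notes list GRCm38, cutadapt 2.3, FastQC 0.11.8, STAR 2.7.8a, RSEM 1.3.3 and MultiQC 1.7, without their settings. The strand setting and annotation release are not given in the sources used here. Rows that name no mouse gene held 5 counts in all and were left out. Of 55487 gene IDs 55141 (99.4%) are in GENCODE release M21.

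The test was that of edgeR 4.0.16 under R 4.3.3 (TMM scaling, filterByExpr, robust quasi-likelihood fit, two-sided F test). The SE of edgeR's log2 fold changes was computed back from the test, as the absolute fold change over the square root of F. P-values were adjusted by Benjamini-Hochberg over all genes tested, with a threshold of 0.05, and a gene that passed is called. The script was tested on simulated counts. Group 1 was fitted alone (6 libraries), group 2 in 1 fit over 9 libraries, and the 2 groups of mice together with a term for the group (12 libraries). Alternatives were DESeq2 1.42.0, voom of limma 3.58.1, other scaling and filters, a replicate block and leaving out each library. In group 1, libraries of the same number deviated together from their group means (r of 0.541, 0.226 and 0.233 over 13370 genes). Wildtype replicate 3 and mutant replicate 2 did so as well (r 0.309), so the data pair the libraries by number only in part. No pair of libraries of the same group agreed within sampling noise (chi-square per degree of freedom of at least 20.8).

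The members and the gene lists were chosen with earlier results of these data known. Named genes are all members and up to 3 called genes of each list per comparison with the smallest p. The close relatives of members, the F-box gene Fbxo9 and the 5 genes most and least like the members' profile are named too. Maea was named outside this rule. Erythroid, late erythroid, early progenitor, hepatocyte, macrophage, granulocyte, megakaryocyte and endothelial markers were lists of general knowledge. Of the erythroid and of the late erythroid list 1 gene each is not reported here and was left out of its list's sums, counts and medians.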

Additional observations from a re-analysis of the deposited data

How the results depend on the processing

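Of 1020 values of members' log2 fold changes under an alternative, 982 kept their side of the threshold, 34 lost and 4 gained a call, and none of the called values changed sign. The replicate block gave 2863 genes called in group 1 in place of 1766. In group 2 (r of the same number from -0.123 to 0.29) the block gave 1309 genes for the mutant and 2331 for the low-yield mutant, beside 942 and 1884. The block changed no call of a member. Calls of list and marker genes were taken only from the fits without the block. For the interaction it gave 5 genes and DESeq2 13, beside 3. DESeq2 called 1453 genes and voom 2000 in the group 2 mutant, voom 3399 in the low-yield mutant, and DESeq2 6 between low-yield and other mutants, beside 0. Without the filter on low counts 1 member was called in the group 2 mutant. The causes of these shifts were not tested.

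Leaving out 1 library gave 753 to 1729 genes and 2 to 4 members in group 1, 425 to 1323 genes and 1 to 2 members in the group 2 mutant, 900 to 2395 genes and 2 to 5 members in the low-yield mutant, and 0 to 22 genes between low-yield and other mutants. The legacy mode of edgeR, added after the data were seen, changed no call of a member. The gained calls were those of Foxo3 and Mxi1 in the low-yield mutant and Mxi1 over both groups of mice with voom, and of Foxo3 in the low-yield mutant without low-yield replicate 3. Swapping labels only within the numbered pairs of group 1, an alternative to the test of ratios added after the data were seen, gave 25 pairs of members in place of 24, and 23 passed both.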
